A study of Gallus gallus with 2 samples.

Results

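ONECUT1, ONECUT2 and ONECUT3 are 3 of the 23967 genes listed in the count matrices. They were taken by name, with no cutoff on a measured value, but with earlier results of these data known. The study itself reports higher expression of the ONECUT family in OTX2CRISPR retinas. All 3 had counts in both libraries. Chick retinas of embryonic day 5 were electroporated outside the embryo, grown as explants for 48 h, dissociated and sorted for OTX2ECR2::GFP, a reporter whose GFP is under the control of an OTX2 enhancer. CTRL retinas received the reporter and a plasmid with CAG-driven Cas9 and the guide scaffold but no guide, and OTX2CRISPR retinas received the same mix with a guide (g2) against the coding sequence of OTX2. The eyes were contralateral pairs of female-genotyped embryos, pooled into 1 library per condition, so there were no replicates and no test was run. Electroporation reaches part of the retina and the edit of OTX2 differs between cells, so the OTX2CRISPR library is a mixture of unedited and differently edited cells that were all sorted by an OTX2 enhancer.

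ONECUT proteins are transcription factors that bind DNA through a single cut domain and a homeodomain. In the retina ONECUT1 is known, together with OTX2, as an activator of the THRBCRM1 element, which marks restricted progenitor cells that give rise to cones and horizontal cells. In the mouse, ONECUT factors are required for horizontal cell genesis and also act in early ganglion cells and cones. The paralogs have related DNA-binding domains, and the 3' counts used here tell their transcripts apart only as far as the alignment to the chicken genome did.

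The study filter left 5073 CTRL cells with 14773938 unique molecular identifiers (UMIs, 1 per captured transcript) and 4928 OTX2CRISPR cells with 13206843 UMIs. Median depth was 2779 and 2566 UMIs per cell, and 38 barcodes occurred in both libraries. The targeted gene OTX2 was at 1745 CPM (UMIs of the gene per 1000000 UMIs of the library or group) in CTRL and 761 CPM in OTX2CRISPR, a log2 ratio of -1.20. Transcripts with small edits are still counted, so this ratio gives no share of edited cells. Transcripts of 6 marker lists of other cell types (pigment epithelium, red blood cells, mesenchyme, endothelium, microglia and lens) summed to between 0.203 and 22.7 CPM per list and library, and HBBA, HBA1, TWIST1, CDH5, TIE1 and CRYAA were at 0 in both libraries. All intervals below are 95% exact intervals for counting error only, and none covers variation among retinas.

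Cells were sorted into marker gates on their UMIs, and each gate was split by phase. LHX1, TFAP2C and POU4F3 cells had at least 2 UMIs of that gene, cone cells at least 10 of RBP4, BRINP2/CRABP1 cells both of these genes with at least 3 UMIs together, and OLIG2 cells at least 2 of OLIG2 and none of the other gates. Cells scored as S or G2/M are called dividing here and those scored as G1 nondividing, after every cell was thinned to 1000 UMIs, which left 5016 CTRL and 4836 OTX2CRISPR cells. The score of 866 CTRL and 1090 OTX2CRISPR cells lay within 0.05 of the value that separates the phases. The gates carried other markers of the cells they were set for. The horizontal cell genes TFAP2A and TFAP2B were at 3352 and 1968 CPM in CTRL LHX1 cells and at 14.8 and 6.23 CPM in CTRL OLIG2 cells, EBF3 of ganglion cells was at 1626 CPM in CTRL POU4F3 cells, and VSX1 and NEUROG2 of restricted progenitors were at 1981 and 2035 CPM in CTRL OLIG2 cells. The BRINP2/CRABP1 gate held 7 CTRL and 406 OTX2CRISPR cells, and its cells had 1207 CPM of SPIK2 and 658 CPM of the ganglion cell gene EBF3 in OTX2CRISPR. Cells outside every gate were kept as ungated cells. They were not free of horizontal cell genes, with TFAP2A at 463 CPM in CTRL and 232 CPM in OTX2CRISPR.

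Each paralog was more abundant in the OTX2CRISPR library, and ONECUT3 had the largest ratio of the 3. ONECUT1 was at 144 CPM (138 to 150.4, from 2129 UMIs) in CTRL and 391 CPM (380.4 to 402, from 5164 UMIs) in OTX2CRISPR, a log2 ratio of 1.44 (1.37 to 1.51). ONECUT2 was at 287 CPM (278 to 295, from 4232 UMIs) and 757 CPM (742 to 772, from 9996 UMIs), a log2 ratio of 1.40 (1.35 to 1.45). ONECUT3 was at 50.3 CPM (46.7 to 54.0, from 743 UMIs) and 380 CPM (369.5 to 391, from 5018 UMIs), a log2 ratio of 2.92 (2.81 to 3.03). All 3 members passed a log2 ratio of 1, as did 5.13% of the 6449 genes with at least 500 UMIs. By size of the ratio ONECUT3 was 13th, ONECUT1 171st and ONECUT2 178th of those genes, and their median was 0.04.

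The share of transcripts that each gate held differed between the paralogs. LHX1 cells made up 1.54% of CTRL cells and held 38.6% (35.1 to 42.2) of the ONECUT3 UMIs, 21.8% (20.6 to 23.1) of the ONECUT2 UMIs and 14.6% (13.1 to 16.2) of the ONECUT1 UMIs. Cone cells, 41.0% of CTRL cells, held 29.3% of ONECUT1, 24.9% of ONECUT2 and 9.29% of ONECUT3 UMIs. OLIG2 cells held 15.7%, 21.9% and 3.63% of them in the same order. The ungated cells, 26.4% of cells, held 36.3%, 27.9% and 41.7%. In OTX2CRISPR, LHX1 cells were 9.46% of cells and held 27.8% (26.5 to 29.0) of the ONECUT3 UMIs and 42.99% (42.01 to 43.96) of the ONECUT2 UMIs. OLIG2 cells there held 16.2% and BRINP2/CRABP1 cells 18.0% of the ONECUT3 UMIs, against 3.63% and 0.269% in CTRL.

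**Figure D1:**
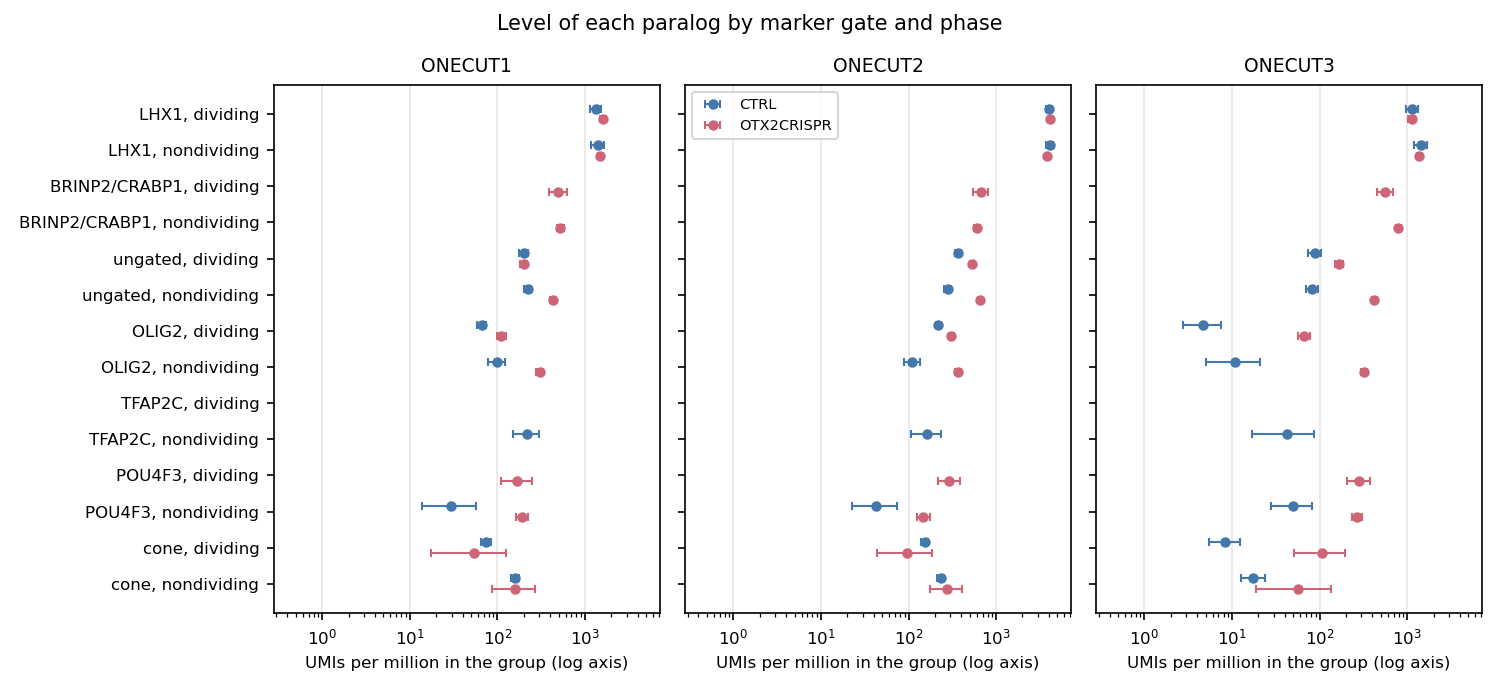
Level of each paralog (CPM of the group, log axis) by gate and phase in CTRL and OTX2CRISPR cells. Points are groups with at least 20 cells and bars are 95% Poisson intervals. LHX1 cells lie highest in every panel, and CTRL and OTX2CRISPR points lie farthest apart for ONECUT3 in OLIG2 cells (4.70 and 66.0 CPM in dividing, 10.9 and 320.4 CPM in nondividing cells).

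LHX1 cells had the highest level of every paralog in both libraries. LHX1 is a LIM homeobox factor of axon-bearing horizontal cells. ONECUT1 was at 1408 CPM (1182 to 1666) in nondividing and 1322 CPM (1132 to 1534) in dividing CTRL LHX1 cells, and at 1489.8 CPM (1397 to 1587) and 1618 CPM (1501 to 1742) in those of OTX2CRISPR. ONECUT2 was at 4080.2 CPM (3687 to 4504) and 4026 CPM (3689.5 to 4385) in CTRL and at 3862 CPM (3712 to 4016) and 4098 CPM (3910.3 to 4293) in OTX2CRISPR. ONECUT3 was at 1429 CPM (1201 to 1688) and 1138 CPM (963 to 1336) in CTRL and at 1379.7 CPM (1291 to 1473) and 1121 CPM (1024 to 1225) in OTX2CRISPR. The intervals of dividing and nondividing LHX1 cells overlapped for every paralog in CTRL, while in OTX2CRISPR those of ONECUT3 were apart. A median CTRL LHX1 cell held 4 UMIs of ONECUT1, 11 of ONECUT2 and 3 of ONECUT3, and a median OTX2CRISPR LHX1 cell 3, 9 and 2, at a depth of 2818 and 2209 UMIs. These levels depend on how many LHX1 UMIs the gate asks for. With 3 in place of 2 UMIs, nondividing OTX2CRISPR LHX1 cells were at 1810.1, 4815 and 1676 CPM of ONECUT1, ONECUT2 and ONECUT3, and with 1 UMI at 1029, 2595 and 989 CPM.

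The order of the remaining groups differed between the paralogs in CTRL. For ONECUT1 the ungated nondividing cells (222 CPM), the nondividing TFAP2C cells (218 CPM from 59 cells) and the ungated dividing cells (199 CPM) followed with overlapping intervals, then nondividing cones (159 CPM), nondividing OLIG2 cells (98.3 CPM), dividing cones (74.1 CPM) and dividing OLIG2 cells (66.1 CPM). Among these last 3 each interval overlapped the next, and both the cones above and the POU4F3 cells below lay apart. For ONECUT2 the dividing ungated cells (371 CPM) and the nondividing ungated cells (279.5 CPM) lay apart from each other and from the rest. Nondividing cones (232 CPM), dividing OLIG2 cells (219 CPM) and nondividing TFAP2C cells (163 CPM) overlapped each with the next, and nondividing OLIG2 cells (109 CPM, 87.8 to 134) lay below dividing cones (154 CPM, 140 to 168). For ONECUT3 every CTRL group outside the LHX1 gate and the ungated cells was under 50 CPM. The nondividing POU4F3 cells were at 49.6 CPM, TFAP2C cells at 42.3 CPM, cones at 17.5 and 8.38 CPM, and OLIG2 cells at 10.9 CPM in nondividing and 4.70 CPM in dividing cells, with overlapping intervals from each to the next. A single cell held 9 of the 15 ONECUT3 UMIs of these 74 POU4F3 cells, which the interval does not cover. POU4F3, a factor of ganglion cells, marked the group with the lowest ONECUT1 and ONECUT2, at 29.8 CPM (13.6 to 56.5) and 43.01 CPM (22.9 to 73.6).

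In OTX2CRISPR the BRINP2/CRABP1 cells took the place after the LHX1 cells for ONECUT1 and ONECUT3. Nondividing BRINP2/CRABP1 cells were at 526 CPM (482 to 572) of ONECUT1, 606 CPM (560 to 656) of ONECUT2 and 789 CPM (736 to 846) of ONECUT3, and the ONECUT3 interval was apart from both neighbours in the order. The ungated nondividing cells were at 427, 655 and 421 CPM and the nondividing OLIG2 cells at 303, 366 and 320.4 CPM. POU4F3 cells were lower for ONECUT1 and ONECUT2 (192 and 148 CPM in nondividing cells) but for ONECUT3, at 267 CPM (235 to 302) in nondividing and 281 CPM (205 to 376) in dividing cells, they overlapped with the nondividing OLIG2 cells. The dividing BRINP2/CRABP1 and POU4F3 groups held 49 and 45 OTX2CRISPR cells, of which 7 and 3 stayed dividing when that was called from at least 10 UMIs of cell cycle genes. On those 7 BRINP2/CRABP1 cells the levels were 139.8 CPM of ONECUT1, 139.8 CPM of ONECUT2 and 279.7 CPM of ONECUT3, against 494, 667 and 564 CPM by score. TFAP2C cells numbered only 8 dividing and 16 nondividing cells in OTX2CRISPR, at 644, 955 and 222 CPM in the nondividing cells from 29, 43 and 10 UMIs.

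The phases separated the paralogs in OLIG2 cells. OLIG2 is a basic helix-loop-helix factor of restricted progenitor cells. The study also reports high OLIG2 in a cluster of cells found almost only in OTX2CRISPR. Whether the OLIG2 gate of that library held such cells was not tested. In CTRL OLIG2 cells ONECUT1 was higher in nondividing than in dividing cells by a log2 ratio of 0.57 (0.19 to 0.94), while ONECUT2 was lower, at -1.004 (-1.334 to -0.69). ONECUT3 rested on 9 and 18 UMIs, and its log2 ratio of 1.22 (-0.12 to 2.44) was not distinguishable from 0. In OTX2CRISPR OLIG2 cells all 3 were higher in nondividing cells, ONECUT1 by 1.45 (1.25 to 1.66), ONECUT2 by 0.24 (0.10 to 0.39) and ONECUT3 by 2.28 (2.03 to 2.54). CTRL cones had the same direction for the 3 paralogs, at 1.10 (0.87 to 1.35), 0.59 (0.42 to 0.77) and 1.06 (0.33 to 1.82). In LHX1 cells the phases differed less. The log2 ratio was between -0.12 and 0.33 for the 3 paralogs in both libraries, and only ONECUT3 in OTX2CRISPR, at 0.30 (0.14 to 0.46), had an interval that left out 0.

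**Figure D2:**
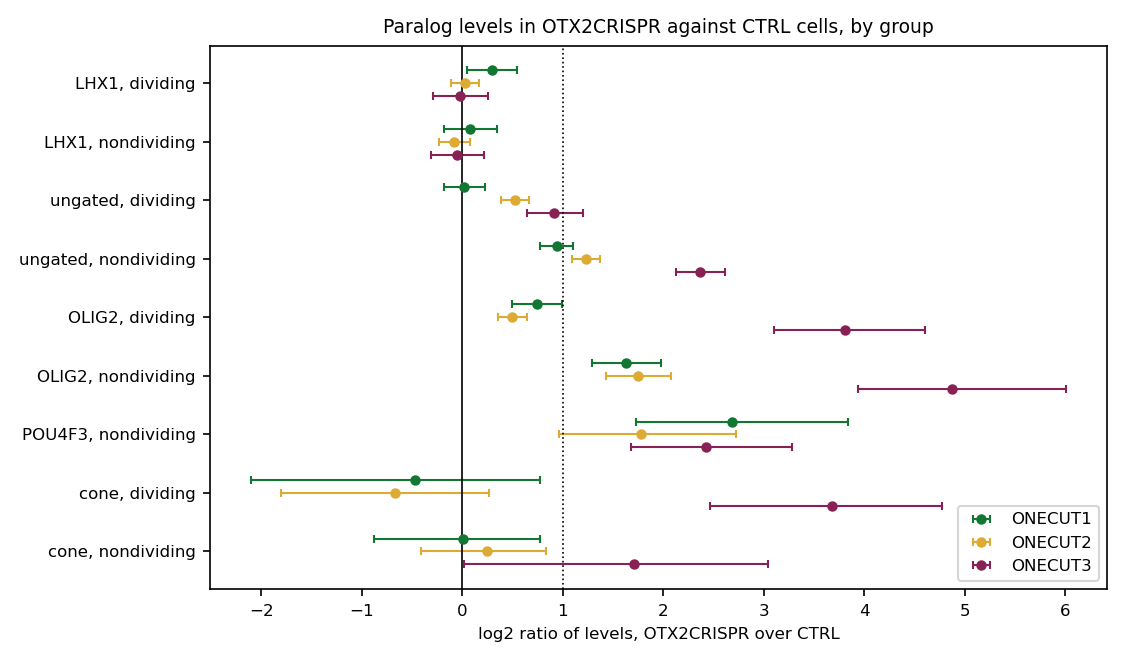
Log2 ratio of each paralog's level, OTX2CRISPR over CTRL, within gate and phase groups with at least 20 cells in both libraries. Bars are exact 95% intervals for counting error, the solid line marks 0 and the dotted line a log2 ratio of 1. The ratios in LHX1 cells lie between -0.08 and 0.29, and those of ONECUT3 in OLIG2 cells at 3.81 and 4.88.

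Within groups the difference between the libraries depended on the gate. In dividing OLIG2 cells ONECUT3 was at 4.70 CPM (18 UMIs) in CTRL and 66.0 CPM (165 UMIs) in OTX2CRISPR, a log2 ratio of 3.81 (3.11 to 4.601). It was the only paralog there past a log2 ratio of 1, which 3.3% of 6310 genes with at least 100 UMIs passed, and was 7th of them. ONECUT1, at 66.1 and 111 CPM, had a log2 ratio of 0.75 (0.49 to 0.997), and ONECUT2, at 219 and 310 CPM, of 0.50 (0.36 to 0.64). In nondividing OLIG2 cells all 3 passed, beside 9.44% of 4090 genes. ONECUT3 was at 10.9 CPM (9 UMIs) and 320.4 CPM (648 UMIs), a log2 ratio of 4.88 (3.94 to 6.01), ONECUT2 at 109 and 366 CPM, a log2 ratio of 1.75 (1.43 to 2.08), and ONECUT1 at 98.3 and 303 CPM, a log2 ratio of 1.63 (1.29 to 1.98). OTX2 in the same nondividing OLIG2 cells had a log2 ratio of -0.39 (-0.48 to -0.30). These were 291 CTRL and 794 OTX2CRISPR cells, and 5 of 6 measured ganglion cell genes passed in them too, among them EBF3 (3.365). Whether the OLIG2 gate held the same cell states in both libraries was not tested.

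In LHX1 cells no paralog passed, beside 1.69% of 885 genes in dividing and 4.13% of 1187 genes in nondividing cells. The log2 ratios were 0.29 (0.05 to 0.54), 0.03 (-0.12 to 0.17) and -0.02 (-0.29 to 0.25) for ONECUT1, ONECUT2 and ONECUT3 in dividing cells and 0.08 (-0.18 to 0.35), -0.08 (-0.23 to 0.08) and -0.05 (-0.31 to 0.22) in nondividing cells. A difference of more than 0.54 in either direction lay outside the interval of each of these 6 values, which covers counting error alone. OTX2 in nondividing LHX1 cells had a log2 ratio of 1.57 (0.85 to 2.39). Whether the LHX1 gate held the same cell states in both libraries was not tested. In nondividing POU4F3 cells all 3 passed, beside 2.28% of 2151 genes, with 9, 13 and 15 UMIs in CTRL. Their log2 ratios were 2.69 (1.73 to 3.84) for ONECUT1, 1.78 (0.96 to 2.73) for ONECUT2 and 2.43 (1.68 to 3.29) for ONECUT3. A single CTRL cell held 9 of the 15 ONECUT3 UMIs. Among ungated dividing cells none passed, beside 1.69% of 5327 genes, with ONECUT1 at 0.02 (-0.19 to 0.22) and ONECUT3 at 0.92 (0.64 to 1.20). Among ungated nondividing cells ONECUT2 at 1.23 (1.09 to 1.37) and ONECUT3 at 2.37 (2.12 to 2.62) passed, beside 4.28% of 5678 genes, and ONECUT1 was at 0.94 (0.78 to 1.11). The few OTX2CRISPR cone cells, 38 dividing and 52 nondividing, had 10 and 5 ONECUT3 UMIs against 26 and 43 in the far larger CTRL cone groups, log2 ratios of 3.68 (2.46 to 4.78) and 1.71 (0.02 to 3.05). Their ONECUT1 and ONECUT2 ratios had intervals that held 0.

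Part of the whole-library ratio went with the makeup of the libraries. When the OTX2CRISPR levels of each gate and phase were weighted by the CTRL share of UMIs of that group, ONECUT1 came to 212 CPM, ONECUT2 to 416 CPM and ONECUT3 to 179.8 CPM, in place of 391, 757 and 380 CPM. The log2 ratios to CTRL were then 0.56, 0.54 and 1.84, against 1.44, 1.40 and 2.92 without the weighting. No interval was calculated for the weighted values. Cone cells held 37.75% of the CTRL UMIs, and that weight fell on 90 OTX2CRISPR cone cells. These had 19, 33 and 15 UMIs of ONECUT1, ONECUT2 and ONECUT3. The gates are coarse and the ungated cells mixed, so this weighting covers the makeup only as far as the gates describe it.

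The mixture of the paralogs differed between groups. ONECUT3 made up 20.7% (17.7 to 23.9) of the paralog UMIs of nondividing CTRL LHX1 cells and 20.5% (19.3 to 21.7) of those of OTX2CRISPR. In nondividing CTRL cones it made up 4.27% (3.11 to 5.72) and in dividing CTRL OLIG2 cells 1.62% (0.965 to 2.55). In OTX2CRISPR its share was 13.6% (11.7 to 15.6) in dividing OLIG2 cells, 32.4% (30.3 to 34.5) in nondividing OLIG2 cells, 41.1% (38.9 to 43.3) in nondividing BRINP2/CRABP1 cells and 43.99% (39.9 to 48.2) in nondividing POU4F3 cells. These last 3 shares lay above that of the LHX1 cells of the same library. The nondividing POU4F3 cells of CTRL had a similar ONECUT3 share, 40.5% (24.8 to 57.9), from 15 ONECUT3 UMIs. A share of UMIs also holds how well each transcript is captured, so it is compared here between groups and not between genes.

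The paralogs and other genes of LHX1 cells were set side by side in the remaining gates, as a percent of their level in LHX1 cells. Nondividing OTX2CRISPR OLIG2 cells had 23.2% of the ONECUT3 level of nondividing LHX1 cells, 20.4% of the ONECUT1 level and 9.49% of the ONECUT2 level. They had 0.296% of the TFAP2A level, 1.03% of the TFAP2B level and 3.33% of the level of MEGF11, a transmembrane protein of horizontal cells in the mouse. PTF1A was nearer to ONECUT2, at 6.81%. In nondividing CTRL OLIG2 cells PTF1A was at 14.9% and ONECUT1 at 6.98%. Nondividing BRINP2/CRABP1 cells had 57.2% of the ONECUT3 level, 35.3% of the ONECUT1 level and 15.7% of the ONECUT2 level. They had 7.47% of the MEGF11 level, 4.5% of the PTF1A level, 3.49% of the TFAP2B level and 0.419% of the TFAP2A level. PROX1, which other retinal neurons use too, was at 24.5% and 39.4% in the nondividing OTX2CRISPR OLIG2 and BRINP2/CRABP1 cells. In the CTRL library the cone transcript RBP4 was at 10431 CPM in cone cells and at 92.2 to 490 CPM in the gates other than cone and mixed, and the part of free RNA in this and in the paralog levels was not tested.

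**Figure D3:**
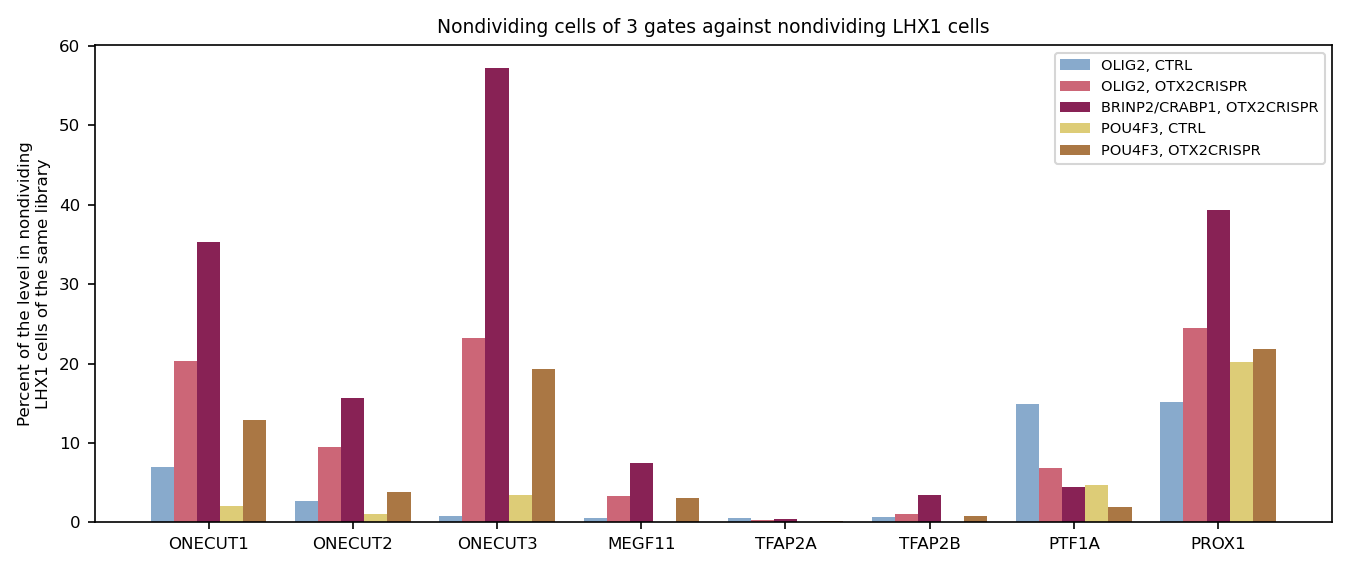
Level of the paralogs and of 5 horizontal cell genes in nondividing OLIG2, BRINP2/CRABP1 and POU4F3 cells, as a percent of the level in nondividing LHX1 cells of the same library. ONECUT3 reaches 57.2% in OTX2CRISPR BRINP2/CRABP1 cells, 23.2% in OLIG2 and 19.4% in POU4F3 cells, while TFAP2A stays under 1% in all 5 groups.

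Some single cells held more than 1 paralog, and a larger share did so in OTX2CRISPR. After thinning to 1000 UMIs, 1299 of 5016 CTRL cells (25.9%, 24.7 to 27.1) and 2401 of 4836 OTX2CRISPR cells (49.6%, 48.2 to 51.1) had at least 1 UMI of a paralog. Of these ONECUT-positive cells, 237 in CTRL (18.2%, 16.2 to 20.5) and 1197 in OTX2CRISPR (49.9%, 47.8 to 51.9) had at least 2 paralogs, and 84 (6.47%) and 440 (18.3%) had all 3. Without thinning, over all kept cells, the shares with at least 2 paralogs were 25.9% and 63.5%. LHX1 cells, most of them with at least 2 paralogs, were 1.54% of kept CTRL and 9.46% of kept OTX2CRISPR cells. ONECUT2 alone was the most frequent pattern in CTRL with 673 cells, then ONECUT1 alone with 349, ONECUT1 with ONECUT2 with 109, and ONECUT3 alone with 40. In OTX2CRISPR ONECUT2 alone was seen in 562 cells, all 3 in 440, ONECUT1 alone in 358, ONECUT2 with ONECUT3 in 305, ONECUT1 with ONECUT2 in 294, ONECUT3 alone in 284 and ONECUT1 with ONECUT3 in 158. In CTRL nondividing POU4F3 cells 2.70% of cells had a UMI of ONECUT1 and 5.41% one of ONECUT2, at a median depth of 3875 UMIs before thinning. ONECUT3 was found in 0.183% (2 of 1095) of CTRL dividing OLIG2 cells, at a median depth of 3364 UMIs. No gate was taken to lack the paralogs, so there is no measured background for these shares.

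**Figure D4:**
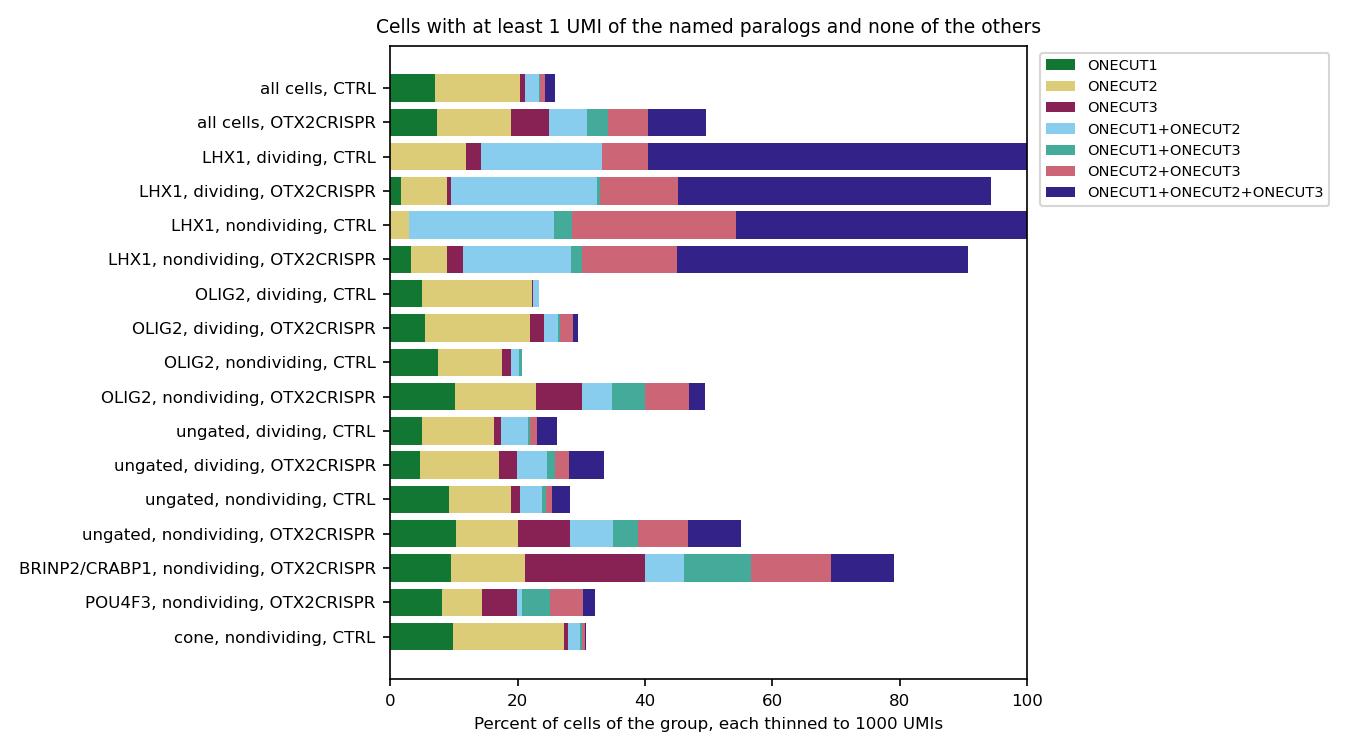
Percent of cells, each thinned to 1000 UMIs, with at least 1 UMI of the named paralogs and none of the others, for both libraries and for gate and phase groups. In LHX1 cells most bars are cells with all 3 paralogs or with ONECUT1 and ONECUT2. In OLIG2 cells no CTRL cell had all 3, and 7 dividing and 20 nondividing OTX2CRISPR cells did.

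ONECUT3 was found together with another paralog in most cells that had it. In CTRL 69.0% (116 of 168) of ONECUT3-positive cells also had ONECUT2 and 57.1% (96) also had ONECUT1, while 12.9% of ONECUT2-positive and 17.3% of ONECUT1-positive cells had ONECUT3. ONECUT3-negative CTRL cells had ONECUT2 in 16.1% and ONECUT1 in 9.45%. In OTX2CRISPR 62.8% (745 of 1187) of ONECUT3-positive cells had ONECUT2 and 50.4% (598) ONECUT1, and 46.5% of ONECUT2-positive and 47.8% of ONECUT1-positive cells had ONECUT3. The number of cells with both paralogs, divided by the number that the product of the 2 shares gives, was 5.17 for ONECUT1 with ONECUT3, 3.86 for ONECUT2 with ONECUT3 and 1.95 for ONECUT1 with ONECUT2 in CTRL. In OTX2CRISPR it was 1.95, 1.90 and 1.77. Any pair of genes that share a cell type gives a value over 1 across all cells, so the values within gates follow.

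Within LHX1 cells most cells held each paralog. ONECUT1, ONECUT2 and ONECUT3 were found in 71.4%, 97.1% and 74.3% of nondividing CTRL LHX1 cells and in 67.7%, 83.3% and 64.9% of those of OTX2CRISPR, and the ratio of joint to product was between 0.915 and 1.12 for the 3 pairs in both phases and libraries. With shares this high the ratio has little room above 1, so the conditional shares say more. In nondividing OTX2CRISPR LHX1 cells ONECUT3 was found in 72.8% (66.6 to 78.3) of 235 cells with ONECUT2 and in 25.5% (13.9 to 40.4) of 47 cells without. ONECUT2 was found in 92.7% (88.01 to 95.9) of cells with ONECUT1 and 63.7% (53.0 to 73.6) of cells without. The intervals of both comparisons lay apart. The negative cells of this gate were unlike the positive ones in other genes too. Before thinning, the 251 cells with ONECUT2 had 1936 TFAP2A UMIs where 45.6 were expected from the level of the 31 cells without. They had 163 OTX2 UMIs where 1003.6 were expected. These comparisons may thus set cell types against each other, which was not tested. Of 77 CTRL LHX1 cells all had a paralog and 70 had at least 2, and of 461 OTX2CRISPR LHX1 cells 425 had a paralog and 376 at least 2. In CTRL OLIG2 cells 23.4% of dividing and 20.6% of nondividing cells were positive, and 11 of 256 and 5 of 60 of them had at least 2 paralogs. The dividing cells with both ONECUT1 and ONECUT2 numbered 11, where the product gave 12.0. In nondividing OTX2CRISPR OLIG2 cells 392 of 794 cells were positive and 153 of them (39.0%, 34.2 to 44.1) had at least 2 paralogs. ONECUT3 was found with ONECUT2 in 74 cells where the product gave 46.2, with ONECUT1 in 62 where it gave 39.2, and ONECUT1 with ONECUT2 in 57 where it gave 48.1.

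Nondividing CTRL cones held ONECUT1 in 12.0% and ONECUT2 in 19.9% of cells, and 21 cells had both where the product gave 25.9. Nondividing BRINP2/CRABP1 cells were positive for a paralog in 79.2% (74.6 to 83.3) of 355 cells. ONECUT3 alone, with 67 cells, was their most frequent pattern, and the joint to product ratios were 1.11, 1.09 and 1.08. The ungated cells of CTRL had higher ratios. Among dividing CTRL ungated cells 43 cells had ONECUT1 and ONECUT2 where the product gave 14.6, and 20 had ONECUT1 and ONECUT3 where it gave 4.10. In nondividing POU4F3 cells of OTX2CRISPR ONECUT2 and ONECUT3 shared 19 cells where the product gave 6.45. In CTRL the POU4F3 gate had no cell with 2 paralogs among 7 positive cells (exact upper bound 41.0%).

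Some cells of the OLIG2 gate held a paralog together with OTX2. Of 809 dividing CTRL OLIG2 cells with an OTX2 UMI, 51 (6.30%, 4.73 to 8.21) had ONECUT1, 157 (19.4%) ONECUT2 and 2 ONECUT3. In dividing CTRL OLIG2 cells without an OTX2 UMI these shares were 5.24% (2.97 to 8.50) and 14.7% for ONECUT1 and ONECUT2, and 0 of 286 had ONECUT3 (exact upper bound 1.28%). The intervals of cells with and without OTX2 overlapped for each paralog. A cell without an OTX2 UMI after thinning can have had one before. Before thinning, ONECUT2 was found in 46.3% of cells with OTX2 and 15.1% of cells without, and ONECUT1 in 19.5% and 9.59%. Those cells were not matched for depth, and the part of depth in that difference was not tested. All other shares here are after thinning. In nondividing OTX2CRISPR OLIG2 cells ONECUT3 was found in 18.9% (15.4 to 22.7) of 472 cells with OTX2 and 26.1% (21.4 to 31.2) of 322 cells without, and ONECUT1 in 21.2% and 24.8%. These intervals overlapped. An OTX2 UMI marks a transcript and not an intact allele. In the LHX1 gate the cells with OTX2 were poorer in the paralogs, with intervals apart. Of nondividing OTX2CRISPR LHX1 cells, ONECUT2 was found in 36.4% (22.4 to 52.2) of 44 cells with OTX2 and in 92.0% (87.8 to 95.1) of 238 cells without, and ONECUT3 in 25% and 72.3%. In the dividing LHX1 cells ONECUT3 was found in 2 of 15 cells with OTX2 and in 110 of 164 without. Whether the LHX1 cells with OTX2 were of another cell type was not tested.

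Partner genes were first sought by the profile of levels over the cell groups, as the Pearson correlation of log2(CPM + 10) over 22 groups of gate, phase and library for 6449 genes. The groups share libraries and are defined by the gate genes, so r is a description. Over these 22 groups ONECUT1 and ONECUT2 were the nearest to each other of all genes, with r of 0.95. In CTRL groups alone ONECUT2 ranked 4th for ONECUT1 and ONECUT1 6th for ONECUT2. In OTX2CRISPR groups alone these ranks were 11 and 5. ONECUT3 was less near, at 0.86 to ONECUT1 and 0.80 to ONECUT2. The 8 nearest genes of ONECUT1 and of ONECUT2 had 5 in common, those of ONECUT1 and ONECUT3 shared 1, and those of ONECUT2 and ONECUT3 none. Only 3 or 4 of each paralog's 8 nearest genes stayed among its 8 nearest in either library alone, so these lists depend on the groups used. The median r over all genes was 0.02, 0.04 and 0.06 for ONECUT1, ONECUT2 and ONECUT3.

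After ONECUT2, the nearest genes of ONECUT1 were PLK2 (a polo-like kinase, r of 0.94), C23H1orf216 (0.93), NCKAP5 (0.93), MEGF11 (0.92), the protocadherin PCDH9 (0.91), the secreted protein gene SCUBE1 (0.91) and the zinc finger gene ZNF703 (0.90). Those of ONECUT2 after ONECUT1 were SCUBE1 (0.95), MEGF11 (0.94), C23H1orf216 (0.93), the gate gene LHX1 (0.93), LOC112530064 (0.93), ZNF703 (0.92) and NCKAP5 (0.92). SCUBE1 was at 199 and 155 CPM in dividing and nondividing CTRL LHX1 cells and at 195 and 217 CPM in those of OTX2CRISPR, and under 27 CPM in every other group. LOC112530064 was at 662 to 891 CPM in the 4 LHX1 groups and at no more than 50.4 CPM elsewhere. SCUBE1 and LOC112530064 were thus concentrated in LHX1 cells. NCKAP5 was less so, at 207 to 259 CPM in the LHX1 groups. It was at 150 and 135.5 CPM in nondividing OTX2CRISPR BRINP2/CRABP1 and OLIG2 cells.

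ONECUT3 had other neighbours. They were ATP8B3, a phospholipid flippase (r of 0.95), SEZ6L, a neuronal membrane protein (0.95), MMD (0.91), EEF1A2, the elongation factor of mature neurons (0.90), PCDH9 (0.90), the RNA-binding splicing regulator MBNL3 (0.90), ELMOD2 (0.88) and MEGF10 (0.88). In OTX2CRISPR groups alone MMD ranked 223rd (r of 0.75) and ELMOD2 264th (0.74). ATP8B3 was at 259 and 301 CPM in nondividing LHX1 cells of CTRL and OTX2CRISPR, at 149 CPM in nondividing BRINP2/CRABP1 cells, and at 62.8 and 64.3 CPM in nondividing OTX2CRISPR OLIG2 and POU4F3 cells against 3.64 and 19.9 CPM in CTRL. SEZ6L was at 549 and 530 CPM in the same LHX1 cells, at 246 CPM in BRINP2/CRABP1 cells, and at 87.5 and 140.5 CPM in OTX2CRISPR OLIG2 and POU4F3 cells against 6.07 and 49.6 CPM in CTRL. The levels of ATP8B3 and SEZ6L went with those of ONECUT3 outside the LHX1 gate as well. Both genes were chosen by their r over these same groups, so this describes the choice and is no separate result.

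**Figure D5:**
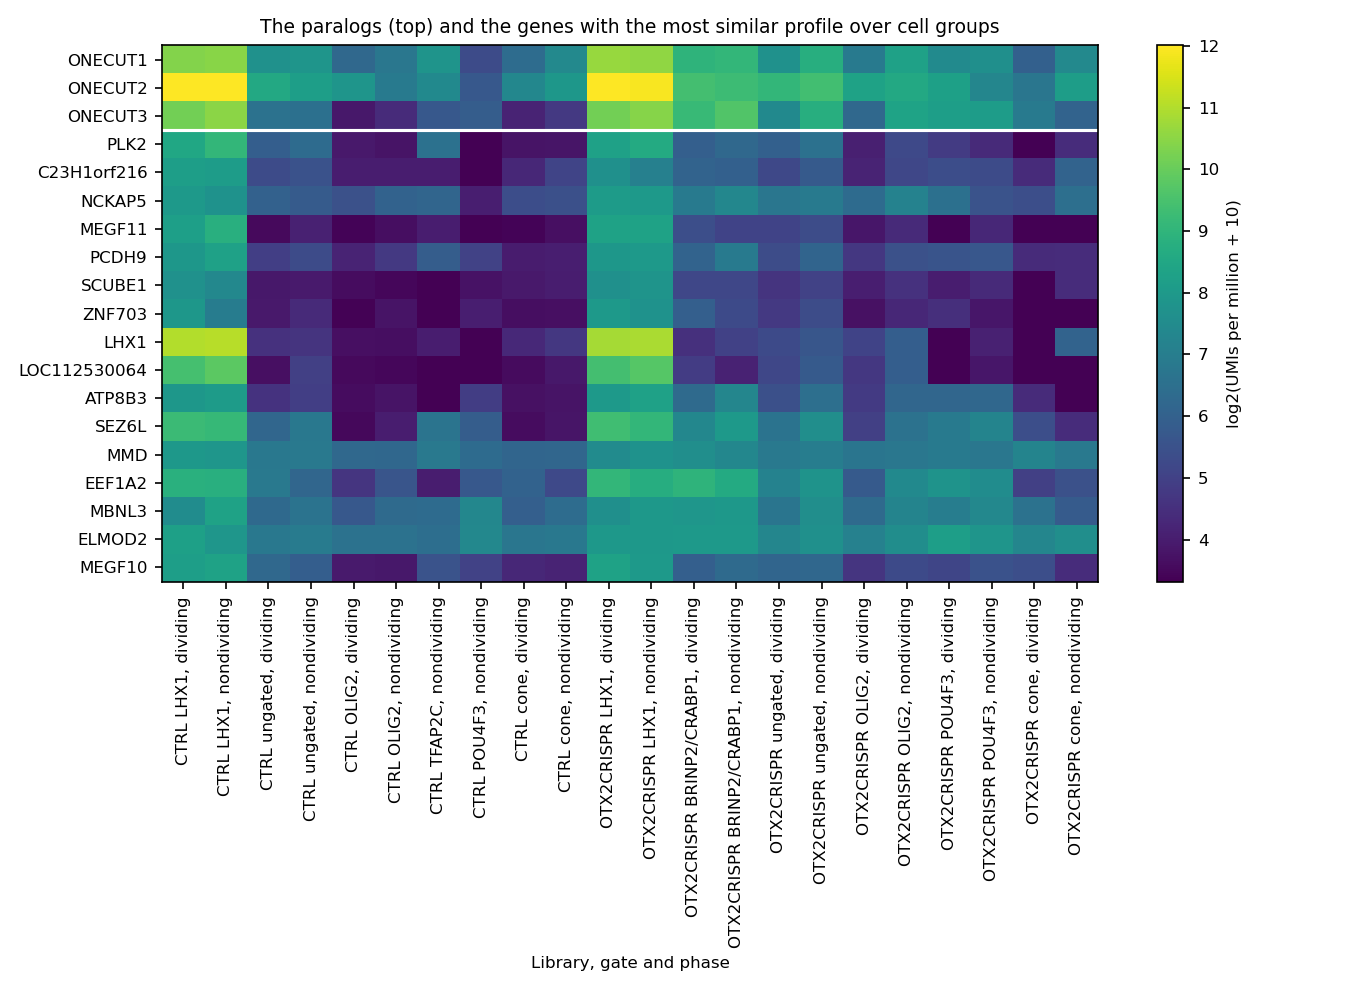
Levels of the 3 paralogs (above the white line) and of the genes with the most similar profile over 22 groups of library, gate and phase, as log2(CPM + 10). LHX1 groups are bright for most genes in both libraries, and ATP8B3, SEZ6L and EEF1A2 are also raised in the OTX2CRISPR BRINP2/CRABP1 groups (ATP8B3 at 149 and SEZ6L at 246 CPM in nondividing cells).

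The 5 genes with the lowest r for ONECUT1 were BORCS6, a subunit of the complex that positions lysosomes (-0.85), RBP5 (-0.80), the ribosomal gene RPLP1 (-0.80), RAB2A (-0.78) and ZNF609 (-0.77). COX8A, a subunit of cytochrome c oxidase (-0.78), RPLP1 (-0.77), RAB2A (-0.77), RBP5 (-0.77) and ZNF609 (-0.75) were lowest for ONECUT2. RPLP1 (-0.88), RBP5 (-0.84), RPS29 (-0.82), EEF1A1 (-0.82) and MRPL57 (-0.80) were lowest for ONECUT3.

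Partner genes were then sought within groups, which takes out what the gate and phase alone bring. For each paralog the UMIs of a gene in positive cells were set against those expected if these cells had the level of the negative cells of their own gate, phase and library, with a positive cell having at least 1 UMI before thinning. The paralogs led to each other here too. In ONECUT1-positive cells ONECUT2 had a log2 ratio of 1.57 and ONECUT3 of 1.38, in ONECUT2-positive cells ONECUT1 had 1.49 and ONECUT3 1.83, and in ONECUT3-positive cells ONECUT1 had 1.30 and ONECUT2 1.75. By gate, ONECUT3 in ONECUT2-positive cells was at 3.26 in LHX1 cells, 2.44 in ungated, 2.30 in POU4F3, 1.58 in OLIG2, 0.65 in cone and 0.50 in BRINP2/CRABP1 cells. The positive and negative cells had median depths of 2642 and 2704 UMIs for ONECUT1, 2691 and 2674 for ONECUT2 and 2634 and 2698 for ONECUT3.

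The highest ratios in ONECUT1-positive cells, over 7506 genes, were those of the AP-2 gene TFAP2E (2.67, 2.47 to 2.86), SLC32A1, the vesicular GABA transporter of horizontal and amacrine cells (2.55, 2.38 to 2.72), the SOX family gene SOX3 (2.27), LOC107051722 (2.27), TFAP2B (2.25, 2.20 to 2.31), the metabotropic glutamate receptor gene GRM4 (2.17), LOC107053180 (2.14) and GRIA4, a subunit of AMPA-type glutamate receptors (2.11). TFAP2B had 2467 UMIs where 517 were expected, 1612 of them in ungated cells, 655 in LHX1 cells and 53 in OLIG2 cells. In ONECUT2-positive cells, over 8167 genes, they included MEGF11 (3.48, 3.34 to 3.63), TFAP2E (3.12), GRIA4 (2.79), LOC107053180 (2.78), OXT (2.74), TFAP2A (2.74, 2.69 to 2.78) and the bicarbonate transporter SLC4A5 (2.72).

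In ONECUT3-positive cells, over 6401 genes, ATP8B3 led (3.05, 2.96 to 3.14, with 957 UMIs where 115 were expected), followed by MAB21L3 (2.76), SLC4A5 (2.62), GRIA4 (2.44), LIN7A (2.31), the receptor gene FGFR2 (2.25), the ligand gene SHH (2.21, 2.08 to 2.33) and LOC107051722 (2.15). ATP8B3 had high ratios in each of the 5 gates where it could be measured. They were 4.61 in POU4F3, 4.14 in ungated, 3.20 in OLIG2, 2.82 in BRINP2/CRABP1 and 2.26 in LHX1 cells. The other genes of this list could be measured in fewer gates. MAB21L3 was above 0 in each of its gates, from 1.06 in OLIG2 to 6.97 in LHX1 cells. SHH was at 2.36 in LHX1, 2.38 in ungated and 2.15 in OLIG2 cells and at 0.06 in BRINP2/CRABP1 cells. The 8 highest genes shared by ONECUT1 and ONECUT2 were 3, those shared by ONECUT1 and ONECUT3 were 2 and those shared by ONECUT2 and ONECUT3 were 2, and GRIA4 was in all 3 sets. When positive cells were called from thinned counts, GRIA4 was at 0.91 for ONECUT1, 2.68 for ONECUT2 and 0.999 for ONECUT3, which left it outside the 8 highest of ONECUT1 and ONECUT3. TFAP2E, MEGF11 and ATP8B3 were then highest for ONECUT1, ONECUT2 and ONECUT3, at 2.28, 3.44 and 2.03. The ungated cells were themselves a mixture with TFAP2A-rich cells in it, so within that gate the measure still sets cell types against each other. It may do so in the LHX1 gate too, where ONECUT2-positive cells of nondividing OTX2CRISPR had TFAP2A at 5.39 and OTX2 at -2.62.

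The lowest within-group ratios were those of the S100 calcium-binding genes S100A6 (-3.00, -3.56 to -2.49) and S100A13 (-2.72), of CYP1B1 (-2.48), of the collagen gene COL5A1 (-2.23) and of the multipotent progenitor gene NR2E1 (-2.17) in ONECUT1-positive cells. In ONECUT2-positive cells they were S100A6 (-2.98), the Notch effector HEYL (-2.37), S100A13 (-2.15), HSPB9 (-2.04) and the gap junction gene GJA1 (-2.01). In ONECUT3-positive cells they were HSPB9 (-2.60), NPY (-2.19), the BMP target ID1 (-2.16), the progenitor gene SOX9 (-2.08) and CTNNAL1 (-1.97). Some of these genes had the other sign in single gates. For ONECUT3, NPY was at 3.16 and ID1 at 0.91 in BRINP2/CRABP1 cells, from 41 and 16 UMIs. For ONECUT2, S100A13, S100A6 and HSPB9 were at 0.71, 0.64 and 0.38 in cone cells. HSPB9 depended on the library. In ONECUT2-positive cells it was at -0.49 in CTRL and -3.91 in OTX2CRISPR taken alone. In ONECUT3-positive cells it was at 0.02 in CTRL, over 4 groups with 211 positive cells, and -3.20 in OTX2CRISPR.

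The lists of retinal fate genes were read beside the paralogs. Among horizontal cell genes 3 of 10 measured members passed a log2 ratio of 1 in the whole libraries, as did 5.13% of all genes. They were LHX1 (2.02), MEGF11 (2.43) and PROX1 (1.42), with TFAP2A at 0.74, PTF1A at 0.75, TFAP2B at 0.11 and FOXN4 at -0.29. The horizontal list's median was 0.74, against 0.04 over all genes. Of ganglion cell genes 9 of 11 passed, with POU4F2 at 3.41, EBF1 at 2.70 and a median of 2.11. Of the cone and THRB network genes none of 10 passed and 6 were at -1 or lower, as were 177 of all 6449 genes. Among the 6 were RXRG (-3.56) and THRB (-3.30), while OLIG2 and NEUROG2 were at 0.22 and 0.35. In nondividing OLIG2 cells, where all 3 paralogs passed, 5 of 6 measured ganglion cell genes (EBF1, EBF3, DLX1, DLX2 and GAP43) and 2 of 4 horizontal cell genes (LHX1 and NRXN3) passed, and 0 of 8 cone genes, beside 9.44% of all genes there. Within groups, ONECUT3-positive cells had higher POU4F2 (1.52, or 0.93 with positive cells called from thinned counts) and CRABP1 (1.60, or 1.12) than negative cells. They had lower RAX (-1.93), NEUROG2 (-0.97) and OTX2 (-0.79). Other ganglion cell genes went both ways in them, with EBF3 at 0.86 and EBF1 at 0.75 but RBPMS2 at -0.69 and DLX2 at -0.64. With positive cells called from thinned counts these were 0.30, 0.39, -1.01 and -0.58. Over both libraries CRABP1 and RAX had the same direction in ONECUT2-positive (1.20 and -0.63) and ONECUT1-positive cells (0.77 and -1.16). With positive cells called from thinned counts CRABP1 was at 0.73 and 0.16 in them. CRABP1 is also a gate gene, and in CTRL groups alone it was at -0.49 and -0.42. ONECUT1-positive cells had OTX2 at -0.16 and ONECUT2-positive cells at -0.01. POU4F2 was at -0.11 in ONECUT2-positive cells, and in ONECUT1-positive cells it was at 0.65, or -0.16 with positive cells called from thinned counts. By gate, OTX2 in ONECUT3-positive cells was at -2.66 in LHX1, -1.14 in ungated, -0.67 in BRINP2/CRABP1 and -0.53 in OLIG2 cells, at 0.07 in cones and at 1.57 in POU4F3 cells.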

How the data were processed

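The authors prepared 10x Chromium 3' libraries, used Cell Ranger (3.0.2 in the matrix header) with GRCg6a, and deposited raw UMI counts per gene and called barcode, without normalization. The study's own cell filter was applied: 200 to 2500 genes, no more than 0.4% of UMIs in 16 mitochondria-related genes and no more than 50% in 80 ribosomal genes. Software was scanpy 1.11.5 for phase scores (43 genes for S and 51 for G2/M), with numpy 2.4.6, pandas 2.3.3, scipy 1.17.1 and Python 3.11.15. Cells that passed more than 1 of the LHX1, TFAP2C, POU4F3 and cone gates were kept apart as mixed, and groups under 20 cells entered no order. Scrublet marked only 6 CTRL and 5 OTX2CRISPR cells and cannot be taken to have found the doublets, which stayed in. Levels have exact Poisson, shares Clopper-Pearson and ratios conditional binomial intervals. Within-group ratios used 0.5 added to observed and expected UMIs and genes with 200 of both together. Genes named are the members, gate genes, OTX2, gate markers, the lists of fate genes, and per paralog the 8 highest and 5 lowest genes of each partner measure. Members, lists and rules were chosen with earlier results of these data known.

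Alternatives were all deposited barcodes, other scalings, cell weights, gate minimums, phase calls, thinning, doublet removal, the pseudocount, single libraries, and leaving out shared barcodes, which was chosen after seeing the data. Tested on simulated counts of the whole libraries (6449 genes), the ratio had the right sign for all 200 changed genes, and 95.4% of intervals covered the truth. The simulated counts had Poisson error alone, without variation among cells or retinas, so this checks the calculation only. Further experiments of the study were not used here. A gene that the rule names is not reported here.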

Additional observations from a re-analysis of the deposited data

Results flagged for a closer look

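ONECUT2 differed between the phases in opposite directions in the 2 libraries. In OLIG2 cells its log2 ratio of nondividing over dividing cells was -1.004 in CTRL and 0.24 in OTX2CRISPR, and in ungated cells it was -0.41 in CTRL and 0.30 in OTX2CRISPR, with all 4 counting intervals clear of 0. The difference between the libraries was not tested, since there was 1 library per condition.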

How the results depend on the processing

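Of the 3 whole-library ratios, ONECUT1 moved to 1.52 and ONECUT2 to 1.56 with equal weight per cell, and all other values stayed within their counting interval. In dividing OLIG2 cells the ONECUT1 ratio was 1.04 with all deposited barcodes and 0.49 after removal of the top 4% of doublet scores, against 0.75, so whether it passes a log2 ratio of 1 depends on the cells kept. All 52 other values of the OLIG2 ratios stayed within their interval. The share of ONECUT-positive cells with at least 2 paralogs depends on depth. In CTRL it was 20.6% with all deposited barcodes, 23.3% at 2000 UMIs, 25.9% without thinning and 20.6% with at least 2 UMIs for a positive cell, against 18.2%. In OTX2CRISPR it was 58.5%, 63.5% and 38.4% at 2000 UMIs, without thinning and with at least 2 UMIs, against 49.9%. Of 462 group levels under alternatives 84 left their interval, 33 higher and 51 lower, with 24 under a gate minimum of 1 UMI and 18 under one of 3. Of 117 values of r, 6 moved by more than 0.1, and 24 of 60 conditional shares and 34 of 60 within-group ratios left their interval, beside 1 that reversed. The within-group ratio of HSPB9 for ONECUT3 was -2.60 in all groups and 0.0225 in CTRL alone, and the cause was not tested. No paired analysis was possible because each condition had 1 library. Some levels rest on few counts, such as 9 ONECUT3 UMIs in CTRL nondividing OLIG2 cells.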
